A study of Mus musculus with 10 samples.

Results

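Genes of the placental prolactin family, the pregnancy-specific glycoproteins, the carcinoembryonic antigen cell adhesion molecules, the keratins and the keratin-associated proteins were followed across hippocampal arrays from mice that differed in exploration. The members were chosen by gene name, as all probe sets with exactly 1 gene symbol beginning with Prl and a number, Prl alone, Psg, Ceacam, Krt and a number, or Krtap. This gave 122 of the 18193 genes that have a probe set of 1 symbol, read by 162 probe sets of 45037 once 64 control probe sets were left out. They comprised 22 probe sets of 18 prolactin family genes, 11 of 7 Psg genes, 25 of 11 Ceacam genes, 33 of 25 type I keratin genes, 28 of 23 type II keratin genes and 43 of 38 keratin-associated protein genes. No signal entered that rule, but the set of genes was proposed with results of these arrays known, so all its values are given as a description and none is used to support another.

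Whole hippocampus was taken from 5 High Exploration and 5 Low Exploration mice, and each mouse had its own array. All were inbred female Balb c/J animals from Jackson with a shared day of birth, and were ranked by a composite of ambulation and use of the center of an open field, an arena in which exploration is scored. The study took the groups from the top and bottom of that ranking. No treatment or allele separated the groups. The labels used here give no age, and the study gives an approximate one only for the start of testing. The text that GEO holds on the design is about handled pups and their CA1 region, so tissue and groups follow the sample labels. Each array measured biotin-labelled RNA with 1 color, and levels are given as log2 of the deposited signal. With 5 arrays a group, their number limits the precision of every value.

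Most of these genes are known from tissues other than brain. The prolactin family comprises pituitary prolactin and, in rodents, a large cluster of related hormones made by trophoblast cells of the placenta. Pregnancy-specific glycoproteins are secreted by trophoblast, and the related Ceacam proteins are surface adhesion molecules of epithelia, endothelium and blood cells, with some rodent members made in the placenta. Keratins are the intermediate filaments of epithelia, and each filament is built from pairs of a type I and a type II chain. Keratin-associated proteins cross-link the keratins of the hair shaft.

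The families lie in gene clusters. In the RefSeq table of mouse genes all 18 prolactin family genes were on chromosome 13, and the 11 Ceacam and 7 Psg genes were on chromosome 7. Of the type I keratin genes 24 were on chromosome 11, and Krt18 was on chromosome 15 together with the 23 type II genes. The keratin-associated protein genes were spread over 5 chromosomes, with 20 of 38 on chromosome 16.

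Many promoters of type I keratin and keratin-associated protein genes shared a feature that the choice by gene name did not use. RefSeq promoters of the mouse build GRCm38.p6 were at hand for 99 of the 122 genes, 106 promoters in all. The letters TATAAA, the core of the TATA box that places the start of transcription, were searched on the coding strand between 45 and 10 bases before the start. They were found in 38 of the 106 promoters (35.8%), against 2.25% of all 32851 mouse promoters. The reverse complement TTTATA in the same window was found in 0.943% of the member promoters, against 0.880% of all. By family, TATAAA was found in 21 of 36 promoters of keratin-associated proteins, 10 of 19 of type I keratins, 3 of 14 of type II keratins, 4 of 19 of the prolactin family, 0 of 12 of Ceacam and 0 of 6 of Psg genes. The CCAAT box, as CCAAT or its reverse complement ATTGG anywhere in the 300 bases, was found in 31.1% of the member promoters, against 37.4% of all. A match is a description of the letters and does not show that a factor binds there.

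The 80 bases before the start of 6 genes are printed to show the presence of TATAAA, in capitals, in the first 4 and its absence from the window in the last pair. They lie at chr16:89083944-89084023 (plus strand) for Krtap6-3, chr11:99422260-99422339 (minus strand) for Krt12, chr11:99389365-99389444 (minus strand) for Krt10, chr13:27057490-27057569 (plus strand) for Prl, chr13:27642494-27642573 (minus strand) for Prl7a1 and chr7:25477626-25477705 (minus strand) for Ceacam1.
Krtap6-3: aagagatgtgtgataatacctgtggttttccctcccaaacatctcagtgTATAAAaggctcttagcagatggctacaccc
Krt12: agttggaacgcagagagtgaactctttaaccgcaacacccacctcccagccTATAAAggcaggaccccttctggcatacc
Krt10: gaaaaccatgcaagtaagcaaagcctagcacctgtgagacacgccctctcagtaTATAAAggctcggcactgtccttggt
Prl: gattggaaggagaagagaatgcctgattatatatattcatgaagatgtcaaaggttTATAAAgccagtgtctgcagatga
Prl7a1: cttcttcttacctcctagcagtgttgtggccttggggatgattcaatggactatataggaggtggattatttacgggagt
Ceacam1: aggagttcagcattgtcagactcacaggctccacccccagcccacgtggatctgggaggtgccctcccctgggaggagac
In these, TATAAA began 31 bases before the start in Krtap6-3, 29 in Krt12, 26 in Krt10 and 24 in Prl. The 41 probe sets of the 37 genes with TATAAA had a median log2 signal of 6.44 and a median log2 difference (High minus Low Exploration) of -0.55, and the 90 probe sets of the 62 genes without it had 6.65 and -0.81.

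The member probe sets read low on all arrays. Their median log2 signal was 6.16, 5.98, 6.19, 6.25 and 6.86 on the 5 High Exploration arrays, against 6.92, 7.06, 7.21, 6.93 and 7.38 on the 5 Low Exploration arrays. The groups did not overlap, although the highest High Exploration array and the lowest Low Exploration array lay close together. The group means were 6.29 ± 0.336 in High Exploration, against 7.10 ± 0.195 in Low Exploration (SD, n = 5 each).

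**Figure D1:**
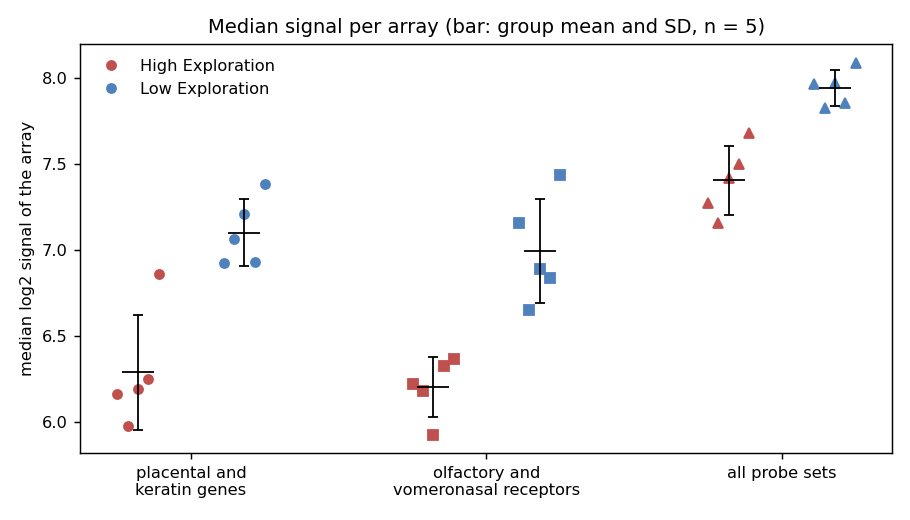
Median log2 signal per array (vertical axis) for the placental and keratin probe sets, for olfactory and vomeronasal receptor probe sets and for all probe sets, with High Exploration to the left of Low Exploration in each pair. Points are arrays and bars are the group mean and SD (n = 5). In all 3 sets the High Exploration mean lies below the Low Exploration mean, 6.29 against 7.10 for the placental and keratin probe sets.

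Most of the array had the same direction, and the brightest probe sets the opposite one. Over all probe sets the median was 7.40 ± 0.202 in High Exploration, against 7.94 ± 0.105 in Low Exploration, while probe sets in the top decile of mean signal had medians of 11.59 ± 0.102 in High Exploration, against 11.24 ± 0.103 in Low Exploration. Set against the median of their own array, the members lay at -1.12 ± 0.174 in High Exploration, against -0.84 ± 0.139 in Low Exploration, where the groups overlapped. A second set foreign to the tissue, 80 probe sets of 71 olfactory and vomeronasal receptor genes, had a median of 6.20 ± 0.174 in High Exploration, against 6.99 ± 0.305 in Low Exploration. As for the members, the groups did not overlap in the median of these receptors (at most 6.37 in High Exploration, at least 6.65 in Low Exploration). The same held for the median of all probe sets (at most 7.68 in High Exploration, at least 7.83 in Low Exploration). The spread between arrays of a group was wide for the members. Their median SD was 1.15 in High Exploration, against 0.996 in Low Exploration, and over all probe sets it was 0.915 in High Exploration, against 0.871 in Low Exploration.

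Signals of the control probe sets moved with these medians. The 18 hybridization controls, bacterial sequences added in known amounts, averaged 13.6 ± 0.308 in High Exploration, against 14.2 ± 0.293 in Low Exploration. The 24 poly-A controls, added to the RNA before labelling, averaged 12.5 ± 0.469 in High Exploration, against 14.1 ± 0.439 in Low Exploration. The 3′ over 5′ log2 ratio of Gapdh, which grows as RNA is shortened, was 4.72 ± 0.481 in High Exploration, against 3.72 ± 0.228 in Low Exploration. With the hybridization controls set equal on every array, the median log2 difference of the members (High minus Low Exploration) was -0.13 in place of -0.73. That scaling shifts all probe sets of an array by the same amount, and the median over all probe sets was 0.14 in place of -0.47. The members' median minus that of all stayed at -0.26. The part of RNA quality in the members' values was not tested. In whole tissue, fewer cells of a type and less RNA per cell cannot be told apart.

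By rank of signal, 81 of the 162 members lay in the lowest 3 deciles of all probe sets and 12 (7.41%) in the highest 2 deciles. Probes differ in how well they bind, so this ranks signals and not the amounts of transcripts. The signals that the deposited table gives carry no detection calls used here, and a low signal cannot be told apart from background. Members with a signal under 23.0, the 10th percentile of all signals, numbered 28 to 41 on the High Exploration arrays and 16 to 25 on the Low Exploration arrays. The same count over all probe sets was not made for each group. Whether the counts are particular to the members is therefore not known. All probe sets of the lowest decile had a median log2 difference (High minus Low Exploration) of -0.62. Summed over all members, the signal was 25118 to 42390 in High Exploration, against 43037 to 56303 in Low Exploration, or 0.0495 to 0.0859% and 0.0921 to 0.130% of the total signal of an array.

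The comparison of High with Low Exploration asked whether any single member differed beyond the spread between mice. By limma with Benjamini-Hochberg adjustment over all 45037 probe sets, 0 of 162 members passed an adjusted p of 0.05 in either direction, where 0.0644% of all probe sets passed as lower and 0.00666% as higher in High Exploration. The lowest limma adjusted p of a member was 0.0845, for Prl7a1. At an unadjusted limma p under 0.05, 35 members were lower (21.6%, against 16.8% of all probe sets) and 0 were higher (against 4.48% of all). The groups did not overlap for 8 members, all lower in High Exploration (4.94%, against 4.84% of all probe sets), and for 0 members that were higher (against 1.17% of all). Under quantile normalization 6 members were lower without overlap (against 1.95% of all probe sets), under median centering 4 (against 1.22%) and with equal hybridization controls 2 (against 0.910%), and both probe sets 1441873_at and 1441874_x_at of Prl7a1 were among them each time.

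Without regard to a test, 127 members had a lower and 35 a higher mean in High Exploration, so that 78.4% were lower, against 69.0% of all probe sets. The median log2 difference was -0.73, a fold of 0.602, beside -0.47 over all probe sets, a fold of 0.722. It was -0.83 over the olfactory and vomeronasal receptors, of which 72 of 80 were lower. The split depended on how arrays were brought to a common scale, with 94 lower and 68 higher after quantile normalization (51.0% of all probe sets lower), 97 and 65 after centering each array on its median (47.1% of all lower), and 91 and 71 after setting the hybridization controls equal (44.0% of all lower). The median over all probe sets was then -0.02, 0.07 and 0.14 on the log2 scale in the same order, and the members' median minus that of all was -0.16 after quantile normalization, against -0.26 as deposited and under the other two scalings.

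At the same signal the members' median difference lay below that of all probe sets in 8 deciles and above it in 2, deciles 1 and 4. In the lowest decile, the 35 members had a median difference of -0.48, beside -0.62 for all probe sets. In decile 5 the 20 members had -1.04, beside -0.60 for all probe sets. In the highest decile the 4 members had -0.45, beside 0.43 for all probe sets, and these 4 are too few to describe that decile.

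**Figure D2:**
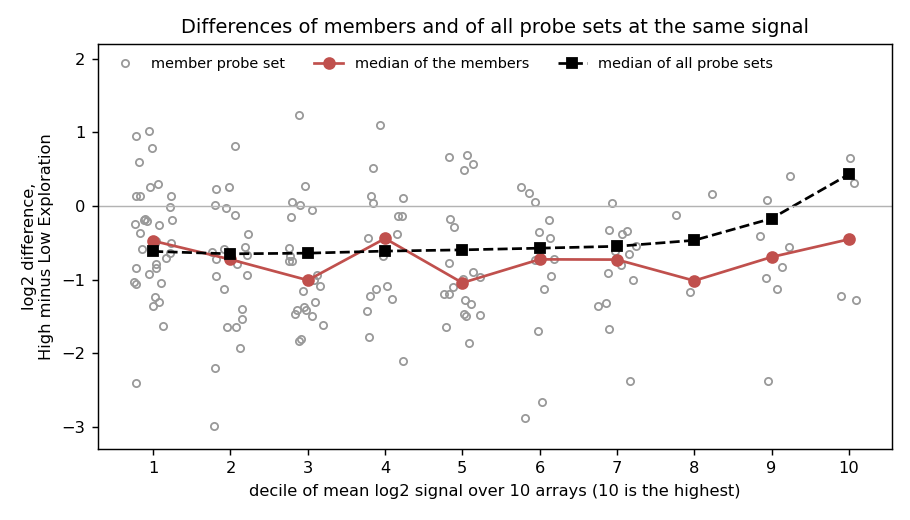
Log2 difference, High minus Low Exploration (vertical axis), by decile of mean log2 signal over the 10 arrays (horizontal axis). Open circles are member probe sets, filled points their median and squares the median of all probe sets, which runs between -0.65 and -0.47 in the lowest 8 deciles and reaches 0.43 in the highest.

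The family medians ran between -1.08 for Ceacam (20 lower, 5 higher) and -0.35 for Psg (8 lower, 3 higher). This order is not a stable one, since with 1 probe set per gene Ceacam had -0.57, nearer to 0 than the prolactin family (-0.92), both types of keratins (-0.69 for type I, -0.91 for type II) and the keratin-associated proteins (-0.59). With only probe sets of the ending _at, Psg had -0.73 and the keratin-associated proteins, with -0.55, were nearest to 0. The prolactin family had a median log2 difference of -0.87, with 17 probe sets lower and 5 higher and with 5 of the 8 members whose groups did not overlap (22.7% of its probe sets, against 4.84% of all, where 2 of the 5 share a source sequence). The type II keratins had -0.92 (21 lower, 7 higher), the type I keratins -0.69 (26 lower, 7 higher) and the keratin-associated proteins -0.58 (35 lower, 8 higher). For Psg genes the median became 0.15 after quantile normalization, 0.19 after centering on the median and 0.26 with equal hybridization controls, and for the keratin-associated proteins it became 0.022, -0.047 and 0.022 under these 3 scalings.

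**Figure D3:**
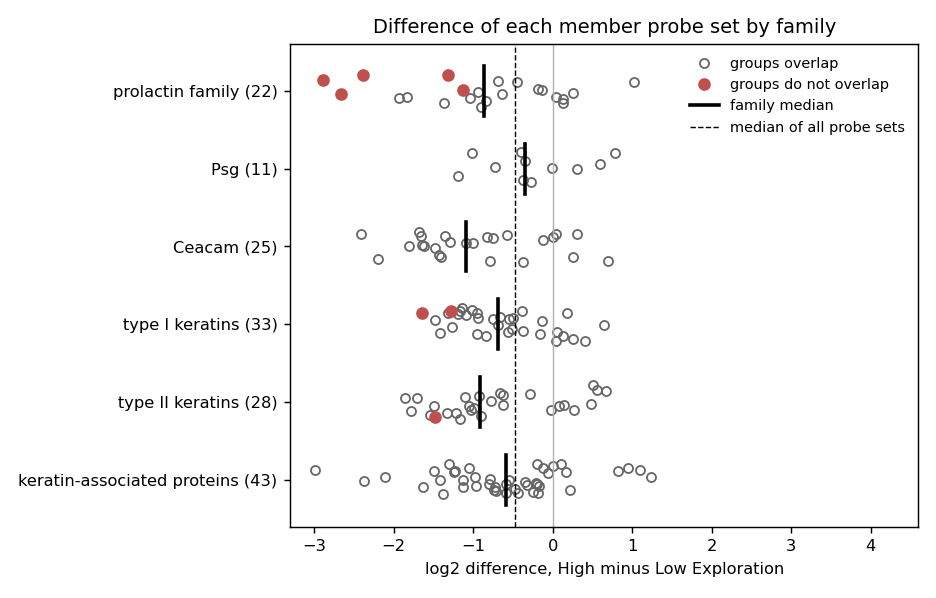
Log2 difference, High minus Low Exploration (horizontal axis), of each of the 162 member probe sets by family. Filled circles are the 8 probe sets whose groups do not overlap, thick lines are family medians and the dashed line is the median of all probe sets at -0.47.

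In the prolactin family the lowest p-values belonged to 2 of the 3 probe sets of Prl7a1, which encodes a hormone of the placenta. The probe set 1441874_x_at had log2 signals of 7.14, 7.27, 6.89, 5.50 and 7.35 in High Exploration, against 9.70, 9.11, 9.25, 9.07 and 8.91 in Low Exploration. The probe set 1441873_at had 6.70, 6.53, 7.07, 4.22 and 6.83 in High Exploration, against 9.92, 8.10, 8.59, 9.20 and 8.87 in Low Exploration. The groups did not overlap in either, and the fourth High Exploration mouse was the lowest in both. The log2 difference of 1441874_x_at was -2.38 (SE 0.44, limma adjusted p = 0.0845), and that of 1441873_at was -2.66 (SE 0.58, limma adjusted p = 0.105). Neither passed the threshold. With 23.0 added to every signal before taking logs, the difference of 1441874_x_at became -2.14 (SE 0.379, limma adjusted p = 0.0464) and passed, where 0.129% of all probe sets did.

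These 2 probe sets were designed on the same source sequence and do not count as separate measurements of the gene. The third probe set of Prl7a1, 1449529_s_at, was designed on another and had 3.85, 4.66, 3.39, 5.20 and 3.73 in High Exploration, against 7.72, 4.62, 3.60, 6.12 and 2.97 in Low Exploration. Here the groups overlapped, the signals lay in the lowest decile, and the log2 difference was -0.84 (SE 0.81, limma adjusted p = 0.551).

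Prl8a6, Prl7b1 and Prl7c1, further members of the placental cluster, had signals without overlap between the groups. Prl8a6 had 4.68, 5.82, 8.01, 5.13 and 7.86 in High Exploration, against 9.97, 8.40, 9.06, 9.12 and 9.36 in Low Exploration. The High Exploration mice were widely spread, and the log2 difference was -2.88 (SE 0.67, limma adjusted p = 0.114). Prl7b1 had 7.66, 7.57, 7.58, 7.21 and 7.88 in High Exploration, against 9.21, 8.49, 8.34, 9.01 and 9.44 in Low Exploration, a log2 difference of -1.32 (SE 0.38, limma adjusted p = 0.138). Prl7c1 had 8.50, 8.47, 8.83, 8.13 and 9.0 in High Exploration, against 9.61, 9.75, 9.86, 9.45 and 9.91 in Low Exploration, a log2 difference of -1.13 (SE 0.36, limma adjusted p = 0.147). The arrays of each group lay close together in Prl7c1, the member of this family with the highest mean signal.

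Prl itself, the hormone of the pituitary lactotroph cell, had 6.38, 5.92, 6.76, 6.46 and 8.10 in High Exploration, against 8.16, 6.09, 7.42, 7.29 and 6.87 in Low Exploration. The groups overlapped, and the log2 difference of -0.44 (SE 0.52, limma adjusted p = 0.634) turned to 0.14 after quantile normalization, 0.09 after centering and 0.16 with equal hybridization controls. Prl3d1, Prl3b1 and Prl2c2, placental lactogens and proliferin, were not analysed here, as none of the member probe sets carried their names.

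**Figure D4:**
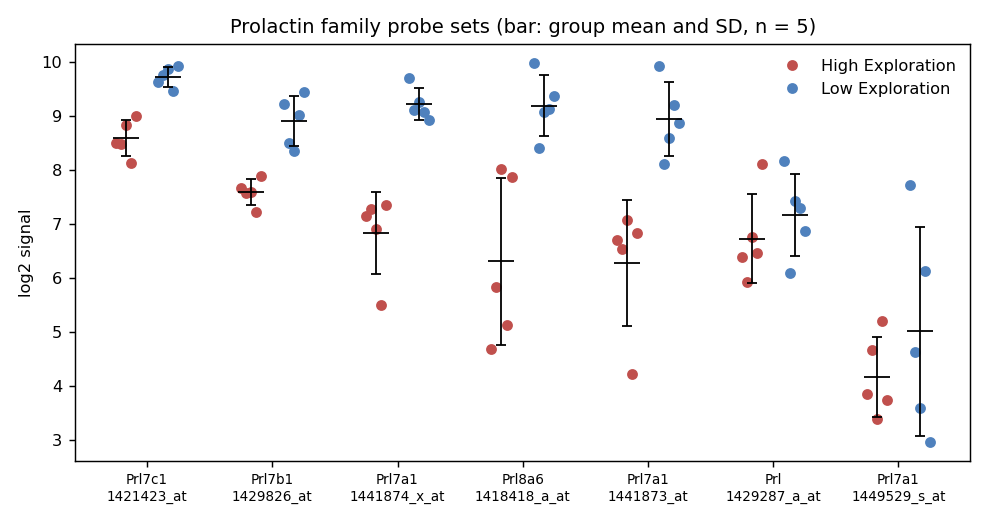
Log2 signal (vertical axis) of 7 prolactin family probe sets, the 5 whose groups do not overlap together with Prl and the third probe set of Prl7a1, with High Exploration left of Low Exploration. Points are mice and bars are the group mean and SD (n = 5). The groups are apart in Prl7c1, Prl7b1, Prl8a6 and 2 probe sets of Prl7a1, and overlap in Prl and in 1449529_s_at.

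Psg genes encode secreted glycoproteins of the placenta. Psg21 read by 1431889_x_at had the highest signals of the family, with 11.27, 11.24, 9.88, 12.58 and 12.94 in High Exploration, against 11.36, 11.06, 11.69, 10.43 and 11.81 in Low Exploration. The High Exploration mice spread on both sides of the Low Exploration mice, and the log2 difference was 0.31 (SE 0.58, limma adjusted p = 0.774). Its other probe sets gave -1.02 (1454091_at, limma adjusted p = 0.201) and -0.01 (1431888_s_at, limma adjusted p = 0.991), where 1431888_s_at had means of 4.19 in High Exploration, against 4.20 in Low Exploration.

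Psg16 is a member of the family for which a transcript in brain is known in mouse. It had 4.31, 5.46, 4.45, 6.10 and 4.50 in High Exploration, against 3.36, 3.28, 4.55, 4.86 and 4.87 in Low Exploration, in the lowest decile of signals. The groups overlapped, and the log2 difference was 0.78 (SE 0.52, limma adjusted p = 0.386). Psg17 and Psg23 had log2 differences of -1.19 and -0.40 (limma adjusted p = 0.218 and 0.589), and that of Psg23 became 0.13 after centering and 0.20 with equal hybridization controls.

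In the Ceacam family 20 of 25 probe sets had a lower mean in High Exploration (against 69.0% of all probe sets), and 0 of 25 were without overlap between the groups (against 4.84% of all). Ceacam1, an adhesion molecule of epithelia, endothelium and immune cells, had 8 probe sets, and their log2 differences all lay between -1.65 and -0.83. The brightest, 1460681_at, had 7.59, 8.61, 8.57, 8.57 and 11.26 in High Exploration, against 9.78, 10.40, 11.34, 8.10 and 9.12 in Low Exploration. A single High Exploration mouse stood above the other 4 here, and the log2 difference was -0.83 (SE 0.74, limma adjusted p = 0.519). For 1425675_s_at the log2 difference was -1.64 (SE 0.52, limma adjusted p = 0.146).

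Ceacam10, a short secreted member of the family, had 4.21, 3.85, 4.37, 4.17 and 7.03 by 1417074_at in High Exploration, against 6.07, 5.49, 7.67, 6.62 and 8.78 in Low Exploration. The same High Exploration mouse, the fifth, was alone above the lowest Low Exploration mice, and the log2 difference was -2.20 (SE 0.74, limma adjusted p = 0.154). The other probe sets of the gene gave -1.62 and -0.76 (limma adjusted p = 0.278 and 0.646). Ceacam18 had a log2 difference of -1.004 (SE 0.90, limma adjusted p = 0.519).

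Among type I keratins, Krt42 had the highest signals. Read by 1439765_x_at it had 10.87, 10.75, 10.24, 10.62 and 11.18 in High Exploration, against 11.73, 11.92, 12.16, 11.56 and 12.64 in Low Exploration. The groups did not overlap, and the log2 difference was -1.27 (SE 0.38, limma adjusted p = 0.142). Its other probe set, 1430208_at, had 7.79 ± 0.31 in High Exploration, against 8.33 ± 0.46 in Low Exploration (SD, n = 5 each), with overlap and a log2 difference of -0.55 (limma adjusted p = 0.419). Krt33b, a keratin of the hair shaft, had 4.32, 4.39, 4.10, 4.76 and 4.61 in High Exploration, against 5.02, 6.26, 7.38, 6.37 and 5.36 in Low Exploration, a log2 difference of -1.64 without overlap (limma adjusted p = 0.138).

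Krt12, the type I keratin of the corneal epithelium, was among the members with a higher mean in High Exploration. By 1419231_s_at it had 11.31, 11.31, 12.36, 9.94 and 10.25 in High Exploration, against 11.90, 9.84, 10.33, 9.80 and 10.04 in Low Exploration, a log2 difference of 0.65 with overlap (SE 0.57, limma adjusted p = 0.510). Its other probe set had means of 7.02 in High Exploration, against 6.89 in Low Exploration.

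Krt10, the type I keratin of the upper epidermis, had 9.99, 10.12, 9.12, 9.73 and 9.89 in High Exploration, against 9.23, 9.69, 9.26, 9.12 and 9.49 in Low Exploration. The log2 difference was 0.41 with overlap (SE 0.37, limma adjusted p = 0.521). Krt222, a divergent type I keratin gene, had 9.95, 9.14, 9.77, 10.27 and 9.61 by 1434535_at in High Exploration, against 9.77, 10.43, 10.37, 10.88 and 10.11 in Low Exploration. Here too the groups overlapped (log2 difference -0.56, SE 0.39, limma adjusted p = 0.410), and the other probe set of the gene gave 0.06.

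Probe sets of keratins that pair in the same epithelia did not all have differences of the same sign, also within 1 gene. Krt18 and Krt8 form the filaments of simple epithelia. Krt18 had 5.86, 6.87, 5.97, 6.57 and 7.58 in High Exploration, against 8.59, 7.45, 7.22, 8.49 and 8.50 in Low Exploration, a log2 difference of -1.48 (SE 0.48, limma adjusted p = 0.150) in which a single High Exploration mouse reached into the Low Exploration range. The 3 probe sets of Krt8 gave log2 differences of -1.02, -1.78 and 0.67 (limma adjusted p = 0.297, 0.148 and 0.445).

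Krt5 and Krt14 form the filaments of basal epidermal cells. Krt5 had 8.34, 8.09, 8.05, 9.28 and 7.09 in High Exploration, against 8.62, 9.43, 10.00, 8.79 and 9.82 in Low Exploration, a log2 difference of -1.17 with overlap (SE 0.49, limma adjusted p = 0.201). Krt14 by its brightest probe set had a log2 difference of 0.18 (SE 0.69, limma adjusted p = 0.897), and its other probe sets gave -1.13 and -0.75. By site of expression the median log2 differences were -1.01 for the 7 probe sets of simple epithelial keratins, -0.95 for 5 of basal, -0.38 for 9 of suprabasal, -1.09 for 7 of wound-induced, -0.58 for 12 of hair shaft and -1.23 for 8 of inner root sheath keratins.

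The type II keratin with the highest signals was Krt81, a keratin of the hair shaft. It had 9.91, 10.20, 9.43, 10.51 and 9.52 in High Exploration, against 10.50, 10.98, 11.41, 11.44 and 11.34 in Low Exploration. A single mouse of either group met the other, and the log2 difference was -1.22 (SE 0.40, limma adjusted p = 0.150). After quantile normalization the groups of Krt81 no longer overlapped. Krt6b, induced in wounded epidermis, had 5.95, 5.09, 4.74, 5.52 and 5.55 in High Exploration, against 6.51, 6.08, 6.50, 7.21 and 7.93 in Low Exploration, a log2 difference of -1.47 without overlap (limma adjusted p = 0.145). Krt78 had a log2 difference of 0.08.

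The differences of the keratin-associated proteins ran between -2.99 (Krtap6-3) and 1.23 (Krtap13), the ends of the range for all members. Krtap6-3 by 1427842_at had 3.08, 7.16, 4.40, 3.84 and 2.29 in High Exploration, against 8.42, 7.99, 4.69, 6.85 and 7.80 in Low Exploration, with overlap (SE 0.91, limma adjusted p = 0.143). Its other probe set, 1452575_at, had 6.83, 2.43, 5.44, 4.75 and 4.22 in High Exploration, against 3.79, 4.75, 4.79, 5.86 and 5.36 in Low Exploration, a log2 difference of -0.18 (SE 0.72, limma adjusted p = 0.902). Mice of 1 group were thus apart by several log2 units in either probe set.

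Krtap12-1 had the highest signals of this family. By 1450535_at it had 8.30, 7.55, 8.06, 11.80 and 8.80 in High Exploration, against 8.23, 12.48, 12.39, 12.24 and 11.04 in Low Exploration. In each group 1 mouse lay among those of the other, and the log2 difference was -2.37 (SE 0.94, limma adjusted p = 0.186). Krtap6-2 had a log2 difference of -2.11 (limma adjusted p = 0.146) and Krtap10-4 one of -0.98. Krtap13, with the largest positive difference, had 7.07, 7.10, 7.41, 5.19 and 8.44 in High Exploration, against 4.76, 7.57, 5.53, 6.96 and 4.23 in Low Exploration (SE 0.73, limma adjusted p = 0.339).

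Probe sets of the same gene often differed from each other. For 22 genes there were several probe sets, 62 in all, and their mean log2 signals ranged over a median of 2.32 and up to 7.23 within a gene (Psg21). In 9 of the 22 genes the differences between High and Low Exploration had opposite signs, and in 11 all were lower. Of the 162 members 24 carried the ending _x_at and 8 the ending _s_at, which mark probes shared with other sequences, so that among close relatives such as these families the named gene is uncertain. Krt42, Psg21 and Prl7a1 were brightest in a probe set of the ending _x_at, and Krt12 in one of the ending _s_at.

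**Figure D5:**
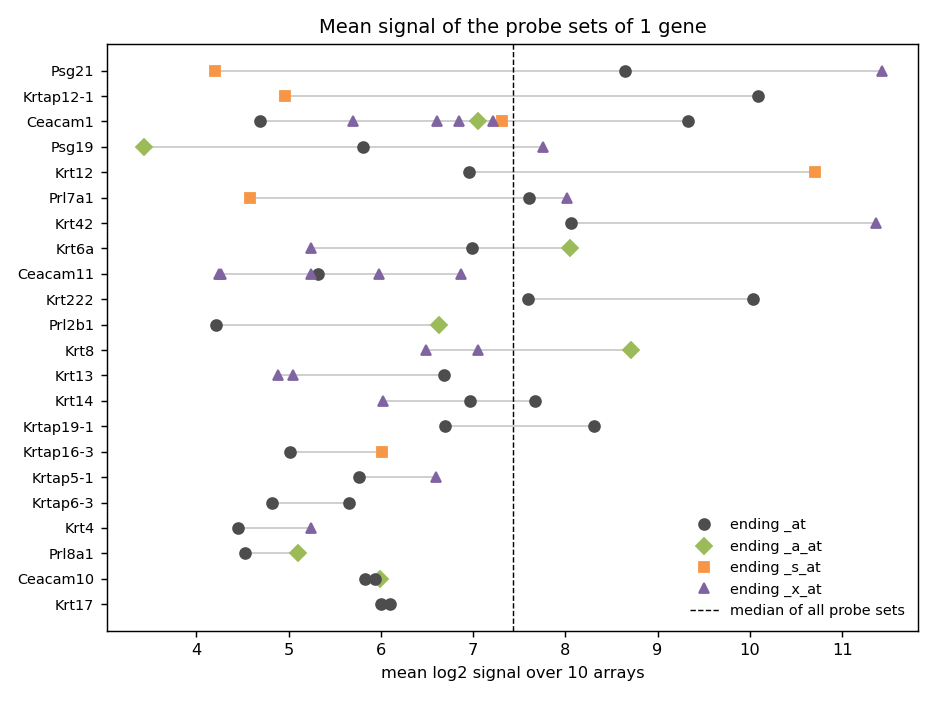
Mean log2 signal over the 10 arrays (horizontal axis) of each probe set of the 22 member genes that have several, with the marker showing the ending of the probe set name. The dashed line is the median of all probe sets, and the probe sets of Psg21 are apart by 7.23.

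Markers of cells that express these families were read on the same arrays. In this and the later lists each marker gene was read by its probe set with the highest mean signal. Of 18 trophoblast markers 14 were on the array, 13 lower and 1 higher in High Exploration (against 69.0% of all probe sets lower). Of these 14, 0 passed the limma threshold and 1 was lower at an unadjusted limma p under 0.05 (against 16.8% of all probe sets). The summed signal of the 14 markers was 1352 to 2558 in High Exploration, against 2951 to 4554 in Low Exploration, and 10 of the 14 lay in the lower 5 deciles of signals. Ctsr, a cathepsin of the placenta, was the single marker of this list without overlap (against 4.84% of all probe sets lower without overlap). Its log2 difference was -2.41 (limma adjusted p = 0.0962). Tpbpa, a defining marker of spongiotrophoblast, had 6.23 ± 0.402 in High Exploration, against 6.71 ± 1.55 in Low Exploration, with overlap.

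Of 22 epidermis and hair markers 20 were on the array, 15 lower and 5 higher (against 69.0% of all probe sets lower). Of these 20, 0 passed the limma threshold and 3 were lower at an unadjusted limma p under 0.05 (against 16.8% of all probe sets). The 3 were Tgm1, Ivl and Trp63, with log2 differences of -2.22, -1.45 and -0.81 (limma adjusted p = 0.217, 0.193 and 0.230). Trp63 was the single marker of this list without overlap (against 4.84% of all probe sets lower without overlap). The summed signal of the 20 markers was 10550 to 22323 in High Exploration, against 13740 to 22915 in Low Exploration. Casp14 and Lor, genes of the cornified layer, were in the highest decile of signals, Casp14 with 13.06 in High Exploration, against 13.27 in Low Exploration, and Lor with 11.23 in High Exploration, against 11.46 in Low Exploration. For the pituitary 8 of 10 markers were on the array, 4 lower and 4 higher. Of these 8, 0 passed the limma threshold and 1 was lower at an unadjusted limma p under 0.05 (against 16.8% of all probe sets). Their summed signal was 1861 to 4466 in High Exploration, against 2711 to 8822 in Low Exploration. The part of such cells in the members' values was not tested.

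The labelled tissue was checked with 10 markers of hippocampal neurons, of which 9 were on the array and 7 lay in the highest 2 deciles of signals. Of the 9, 3 were lower and 6 higher in High Exploration (against 69.0% of all probe sets lower), with 0 past the limma threshold. At an unadjusted limma p under 0.05, 1 was lower and 1 higher (against 16.8% and 4.48% of all probe sets). Camk2a, a kinase abundant in forebrain neurons, had 13.27 in High Exploration, against 13.28 in Low Exploration. Neurod6, a transcription factor of pyramidal neurons, had 11.83 ± 0.448 in High Exploration, against 10.65 ± 0.427 in Low Exploration (limma adjusted p = 0.155). Slc17a7, the vesicular glutamate transporter, was in decile 7 and the single marker of this list without overlap (against 4.84% of all probe sets lower without overlap). It had 6.99 ± 1.31 in High Exploration, against 9.10 ± 0.367 in Low Exploration (limma adjusted p = 0.134). Read in the same way, by 1 probe set per gene, 12 of the 122 placental and keratin genes (9.84%) lay in the highest 2 deciles.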

How the data were processed

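Total RNA from whole hippocampus was purified on columns according to the labels, while the study's methods name columns or Trizol. The RNA was labelled with biotin and hybridized to Affymetrix mouse arrays, 1 per mouse. The labels describe the standard protocol and the study's methods a double round of amplification, so amplification is not settled here. The values are the linear signal intensity of each probe set, which the authors deposited after MAS 5.0 scaled every array to a trimmed mean of 500 (2% trimmed at both ends) without normalizing the distribution. With a scaling to a fixed mean, other probe sets read lower when abundant ones read higher. The part of this in the members' values was not tested.

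Signals were put on the log2 scale with no filter, because only 44 of 162 members have a mean above the median of all probe sets. High minus Low Exploration was fitted with limma 3.58.1 in R 4.3.3 over 45037 probe sets (Benjamini-Hochberg, 0.05), after the script was tested on simulated data. P-values set the difference between the groups against the spread between mice of a group, which limma moderates by that of all probe sets. Genes were named from the platform annotation, and all 122 matched the RefSeq table by Entrez identifier. Named were, per family, the 2 members with the highest signals and the 2 with the smallest p, the 6 smallest p of all, and 13 fixed genes, of which 10 had a member probe set. Krtap13 was named after its values were seen. The members and lists were chosen with earlier results of these data known. Alternatives were quantile, median and hybridization-control scaling, a floor or added constant of 23.0, a filter above the median, a variance trend, 1 probe set per gene, only the ending _at, and leaving out each array.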

Additional observations from a re-analysis of the deposited data

Results flagged for a closer look

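Dixon's ratio, the gap of an extreme mouse to its nearest neighbor over the range of its group, was examined in 78 groups of 5 and was above 0.71 in 8, where chance gives about 1 in 20. In the prolactin family the fourth High Exploration mouse was the lowest at both probe sets of Prl7a1 that separate the groups, with 5.50 at 1441874_x_at (the others 6.89 to 7.35) and 4.22 at 1441873_at (the others 6.53 to 7.07). The second Low Exploration mouse had the lowest median over the prolactin family, 6.60 on the log2 scale, with the others at 7.66 to 7.90.

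In the Ceacam family the fifth High Exploration mouse was the highest at Ceacam1 (11.26 by 1460681_at, the others 7.59 to 8.61) and at Ceacam10 (7.03 by 1417074_at, the others 3.85 to 4.37). Among keratins, Krt8 by 1420647_a_at was lowest in the second High Exploration mouse at 6.53 (the others 8.51 to 8.83), and Krt12 by 1419231_s_at was highest in the first Low Exploration mouse at 11.90 (the others 9.80 to 10.33). Krtap10-4 was lowest in the fourth Low Exploration mouse at 9.46, close to the others at 9.67 to 9.72. The causes were not tested.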

How the results depend on the processing

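The median log2 difference of the members (-0.73) kept its sign at smaller size under quantile, median and hybridization-control scaling. Those of Psg genes and keratin-associated proteins did not always keep theirs. For the members the values were as follows. After quantile normalization the median log2 difference was -0.18 for all members, 0.15 for Psg, -0.15 for type I keratins, -0.36 for type II keratins and 0.022 for keratin-associated proteins, with a median signal of 6.81 in Low Exploration. After centering each array on its median these were -0.20, 0.19, -0.15, -0.38 and -0.047, with -0.55 for Ceacam, a median signal of 6.83 in Low Exploration and 4 members lower without overlap. With equal hybridization controls they were -0.13, 0.26, -0.081, -0.31 and 0.022, with -0.26 for the prolactin family, -0.48 for Ceacam, 6.80 in Low Exploration and 2 members without overlap, both probe sets of Prl7a1. Adding 23.0 to all signals let 1 member pass limma as lower (Prl7a1) and gave median signals of 6.67 in High Exploration, against 7.33 in Low Exploration. Above the median of all probe sets the 44 members had 8.05 in High Exploration, against 8.88 in Low Exploration. With only the ending _at, 5 of 116 members were lower without overlap (4.31%, against 5.30% of all probe sets of that ending). The cause of these shifts was not tested beyond the scaling itself. A scaling on the poly-A controls was not tried. Their log2 difference (High minus Low Exploration) was -1.62, against -0.61 for the hybridization controls.

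Leaving out each mouse in turn gave medians of -0.80 to -0.67 for all members, -0.96 to -0.74 for the prolactin family, -0.52 to -0.17 for Psg, -1.31 to -0.90 for Ceacam, -0.87 to -0.56 for type I keratins, -1.01 to -0.76 for type II keratins and -0.71 to -0.45 for keratin-associated proteins, and 0 members passed limma each time. Members lower without overlap numbered 8 to 16 (16 or 9.88% without the fifth High Exploration mouse, against 8.42% of all probe sets, and 14 or 8.64% without the first Low Exploration mouse, against 7.02% of all), and those higher 0 to 1 (1 or 0.617% without the third High Exploration mouse, against 2.37% of all). No paired analysis was possible because the labels give no replicate numbers shared between the groups. Low signal limits the precision, as 118 of 162 members lay in the lower 5 deciles.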

Other observations

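Tissues next to the hippocampus were read through their own markers. All 10 choroid plexus markers were on the array, 8 lower and 2 higher in High Exploration (against 69.0% of all probe sets lower). Of these 10, 0 passed the limma threshold and 2 were lower at an unadjusted limma p under 0.05 (against 16.8% of all probe sets). Their summed signal was 21175 to 35101 in High Exploration, against 17984 to 29723 in Low Exploration, and most of it was Ttr, the carrier of thyroid hormone that the plexus secretes, 1 of the 2 markers with a higher mean (14.65 in High Exploration, against 14.08 in Low Exploration). Without Ttr the sum was 1450 to 4825 in High Exploration, against 2618 to 5484 in Low Exploration. The 2 markers lower at an unadjusted p were Slc4a5, a bicarbonate transporter, with a log2 difference of -2.56 (limma adjusted p = 0.122), and Otx2, a transcription factor, with -1.79 (limma adjusted p = 0.153). All 10 meningeal markers were on the array, 5 lower and 5 higher. Of these 10, 0 passed the limma threshold and 1 was higher at an unadjusted limma p under 0.05 (against 4.48% of all probe sets). Their summed signal was 12365 to 63894 in High Exploration, against 8008 to 19002 in Low Exploration, and Ptgds, a prostaglandin synthase of the meninges, had 14.20 in High Exploration, against 12.65 in Low Exploration (limma adjusted p = 0.183). In both lists the summed signals of the groups overlapped.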
